A study of Mus musculus with 6 samples.

Results

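The 75 genes described here encode subunits of the mitochondrial respiratory chain and of the ATP synthase, and were measured at embryonic day 8.75 in the presomitic mesoderm (PSM) of the mouse, the unsegmented tissue that buds off somites. They were taken by symbol: every probe set with exactly 1 gene symbol that begins with Ndufa, Ndufb, Ndufc, Ndufs or Ndufv and a number, that is Sdha, Sdhb, Sdhc or Sdhd, that begins with Uqcr, with Cox and a number from 4 to 8, or with Atp5. This gave 141 of the 19606 probe sets in the table, for 75 of the 10290 genes with 1 symbol: 33 of complex I, 4 of complex II, 8 of complex III, 13 of complex IV and 17 of complex V. A further 6 probe sets that pair such a symbol with another gene were left out. The symbols set the complex, so 2 members stand under a heading they fit only in part: Ndufa4 counts with complex I by name although its protein is now placed with cytochrome c oxidase, and Cox7a2l counts with complex IV although its protein is known as a supercomplex assembly factor.

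The controls had the genotype R26R AC/AC and the mutants R26R AC/AC;T-Cre, all on a background labelled C57BL6/6J. Both genotypes thus carried the AC allele at the Rosa26 locus on both chromosomes, and only the mutants carried Cre under control of the T (Brachyury) promoter, known for its activity in the streak and in early mesoderm. The labels do not spell out AC. From what is known of the study it is A-CREB, a dominant-negative protein that binds CREB-family transcription factors and keeps them off DNA, made only in cells that have seen Cre. No embryos with T-Cre and without AC were among the samples. Each of the 6 arrays carried RNA from a pool of 3 anterior PSMs, cut away from the posterior PSM and the somites, and each genotype had 3 pools, called biological replicates in the labels. The p-values below measure the spread between such pools.

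The respiratory chain sits in the inner mitochondrial membrane. Complex I takes electrons from NADH, complex II takes them from succinate, complex III passes them from ubiquinol to cytochrome c, and complex IV hands them to oxygen. Complexes I, III and IV pump protons, and complex V, the ATP synthase, uses the resulting gradient to make ATP. Nearly all subunits are encoded in the nucleus and imported, and their promoters are known for binding NRF1, GABP (also called NRF2), YY1, Sp1 and CREB. The few subunits encoded in mitochondrial DNA were not members by the rule. Embryos of this age make much of their ATP by glycolysis, and the PSM is known for a graded glycolytic activity along its axis.

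Because the mutation is understood to act on CREB-family factors, the promoters were searched for the palindromic cyclic AMP response element (CRE), TGACGTCA. Promoter windows, from 250 bases before to 50 bases after a RefSeq transcription start (GRCm38.p6), were at hand for 63 of the 75 members. The full CRE was in 3 of these 63 (4.76%), against 2.03% of the 27025 genes with a window and 3.99% of the 5966 tested genes with one. The 3 members were Ndufb2, Ndufa10 and Uqcrfs1. Ndufb2 was the member that passed the test for a lower signal in the mutants. Nubpl, an iron-sulfur protein needed to assemble complex I and not itself a subunit, also passed it and also held a full CRE. Sites outside the members were listed only for related genes that passed the test, so Nubpl was chosen by its result. The 120 bases that end at the base before the start are printed for these 4 genes, 5′ to 3′ on the strand of the gene with the CRE in capitals, from chr6:39592445-39592564 (plus strand) for Ndufb2, chr12:52097626-52097745 (plus strand) for Nubpl, chr1:92473759-92473878 (minus strand) for Ndufa10 and chr13:30545317-30545436 (minus strand) for Uqcrfs1. Ndufa12, a complex I subunit, is added from chr10:94198915-94199034 (plus strand), with its only copy of the CRE core, TGACG, in capitals. Among the members that passed a filter on low signal and were higher in the mutants, Ndufa12 had the lowest unadjusted p.
Ndufb2: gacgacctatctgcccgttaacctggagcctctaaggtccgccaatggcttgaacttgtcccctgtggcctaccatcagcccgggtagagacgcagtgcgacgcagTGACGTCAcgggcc
Nubpl: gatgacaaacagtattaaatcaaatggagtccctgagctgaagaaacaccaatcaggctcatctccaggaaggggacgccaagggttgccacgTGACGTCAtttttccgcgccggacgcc
Ndufa10: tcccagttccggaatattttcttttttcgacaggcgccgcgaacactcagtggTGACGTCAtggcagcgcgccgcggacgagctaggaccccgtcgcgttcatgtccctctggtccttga
Uqcrfs1: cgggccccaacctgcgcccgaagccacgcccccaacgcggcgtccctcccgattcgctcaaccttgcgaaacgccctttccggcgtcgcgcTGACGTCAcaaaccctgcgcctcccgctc
Ndufa12: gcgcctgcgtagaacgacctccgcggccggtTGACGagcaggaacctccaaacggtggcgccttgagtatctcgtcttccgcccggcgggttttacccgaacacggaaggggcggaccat
The CRE began 14 bases before the start in Ndufb2, 27 in Nubpl, 29 in Uqcrfs1 and 67 in Ndufa10, and the core of Ndufa12 began 89 bases before it. Ndufa10 and Uqcrfs1 held the full CRE and did not pass the test. Pdha1, Mrpl55 and Rps27, the other related genes that passed it for a lower signal, held no full CRE. A match is a stretch of letters, and binding was not measured. Any part of the CRE in the differences was not tested.

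Values are the authors' scaled signals, in arbitrary units that allow a probe set to be compared between arrays but not with another probe set. Differences are on the log2(signal + 1) scale, mutant minus control, with 1 probe set per gene, the one with the highest mean. Each difference was tested by limma over all 7245 genes that passed a filter on low signal (geometric mean over 349), two-sided, and genes with a Benjamini-Hochberg adjusted p under 0.05 were called. Of the 75 members, 72 passed the filter. Cox6b2, Cox7a1 and Cox8c, all tissue-restricted isoforms of complex IV subunits, did not.

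Subunit genes of the respiratory chain and ATP synthase differed little between the genotypes, and 1 gene of complex I was lower in the mutants. Of the 72 tested members, 1 fell (Ndufb2), 0 rose and 71 were not called, beside a background of 1.70% of all tested genes called, 1.10% lower and 0.594% higher. A share of 1 in 72 (1.39%) is near that background. At an unadjusted p under 0.05 there were 5 members, all of complex I, against 15% of all genes. The median difference was 0.05 for the members and −0.01 for all tested genes, and 51 members lay above 0 and 21 below. The differences ran from −0.63 to 0.32, and 62 of the 72 were smaller than 0.2 in size. The members' median SE was 0.10, against 0.14 over all genes. The 95% confidence interval lay wholly within 0.5 log2 units of 0, a 1.41-fold change, for 64 of the 72 members (88.9%), against 61.6% of all tested genes. These 2 comparisons set mostly bright genes against genes of every level above the filter, with a variance that was let depend on signal. The members averaged a log2 level of 12.7 in the control pools, and genes of like signal were not compared. The groups did not overlap for 13 members, 8 higher and 5 lower, against 21.2% of all genes (9.73% higher and 11.5% lower).

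**Figure D1:**
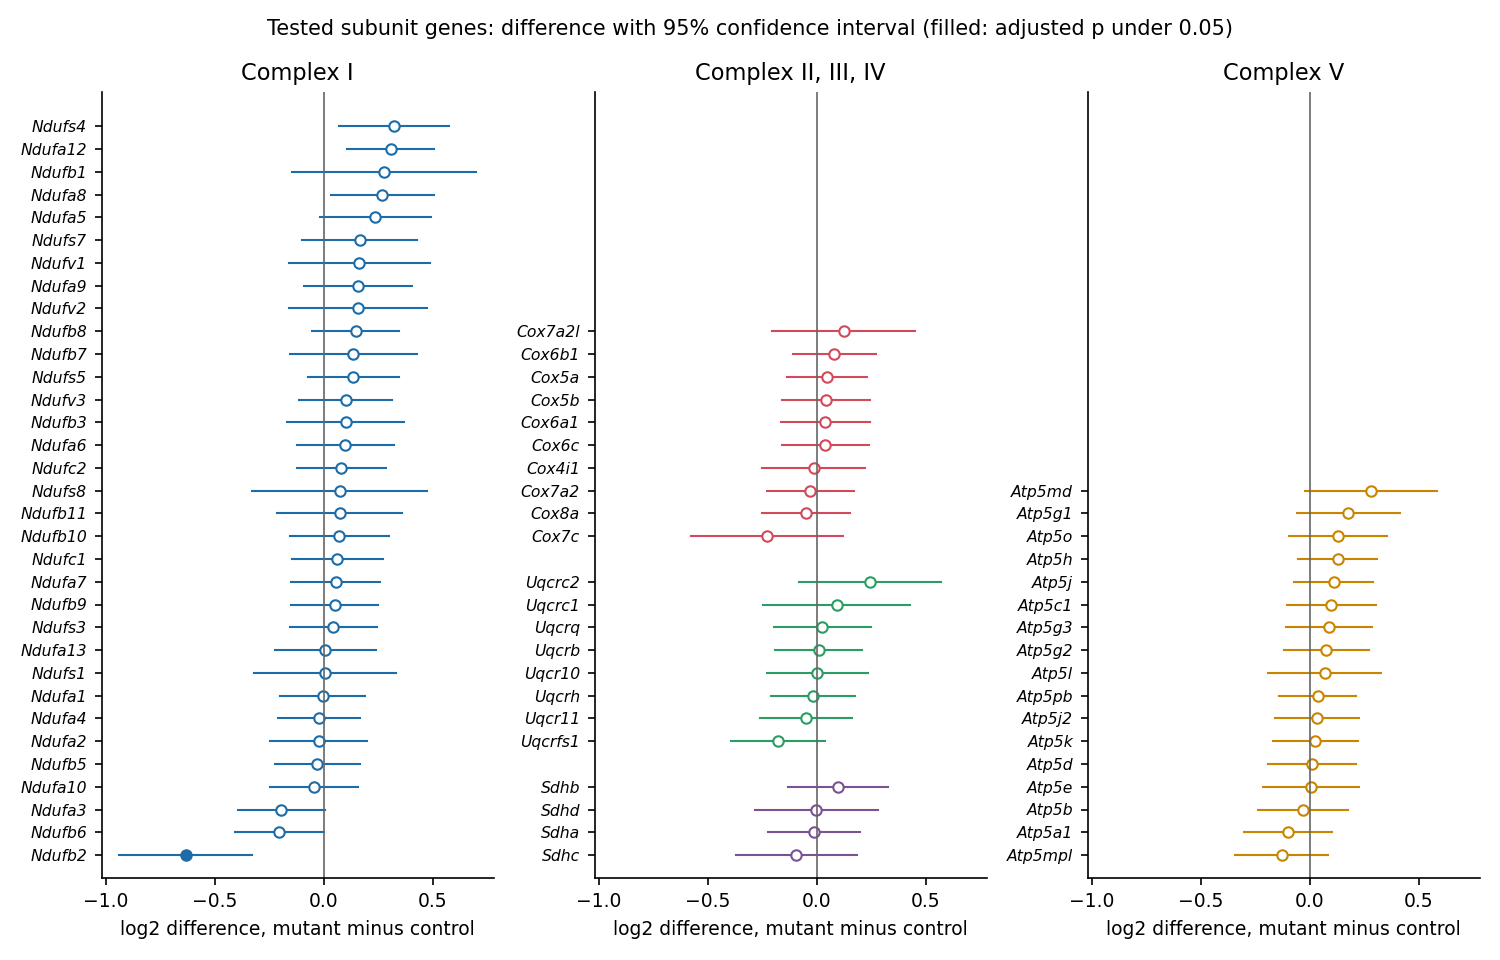
Difference between mutant and control pools (log2, horizontal axis) with its 95% confidence interval for each of the 72 tested subunit genes, by complex, ordered by size within each complex. Filled symbols mark an adjusted p under 0.05. Ndufb2, at −0.63, is the only filled symbol, and most other points lie within 0.2 of 0.

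Complex I is the largest complex of the chain, and it held both ends of the range. Its 33 tested members had a median difference of 0.07, with 25 above 0 and 8 below, 1 called lower and 0 called higher. Ndufb2, an accessory subunit of the membrane arm, had signals of 4717, 3550 and 4034 in the control pools and 2574, 3022 and 2319 in the mutant pools. Every mutant pool lay below every control pool. The means were 4100 ± 586 and 2638 ± 356 (SD, n = 3 pools each), a 1.55-fold lower level in the mutants. The log2 difference was −0.63 (SE 0.14, 95% confidence interval −0.94 to −0.33, limma adjusted p = 0.0496). In bulk tissue, fewer cells of a type and less RNA per cell cannot be told apart.

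A further probe set for Ndufb2, of a kind that can also bind related transcripts, had signals of 3587, 3210 and 3187 in the control pools and 1750, 2060 and 1694 in the mutant pools. The groups again did not overlap, and the spacing between them was wider. In a fit over all 11731 probe sets, where 0.690% were called, this probe set was the only 1 of the 129 tested member probe sets to be called (log2 difference −0.86, SE 0.12, limma adjusted p = 0.0136), and the one used above was at an adjusted p of 0.0836. With both probe sets averaged, the gene's difference was −0.75 (limma adjusted p = 0.0300). The call lay close to the threshold. Of 17 alternative settings, all gave a negative difference and 10 kept the call. It was lost in 5 of the 6 fits that leave out 1 array, at adjusted p values of 0.0506 without control 2, 0.153 without control 3, 0.207 without mutant 1, 0.0921 without mutant 2 and 0.0907 without mutant 3, and kept without control 1 (0.0498). It was also lost with quantile normalization (0.0563) and with no intensity trend in the variance (0.0671).

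**Figure D2:**
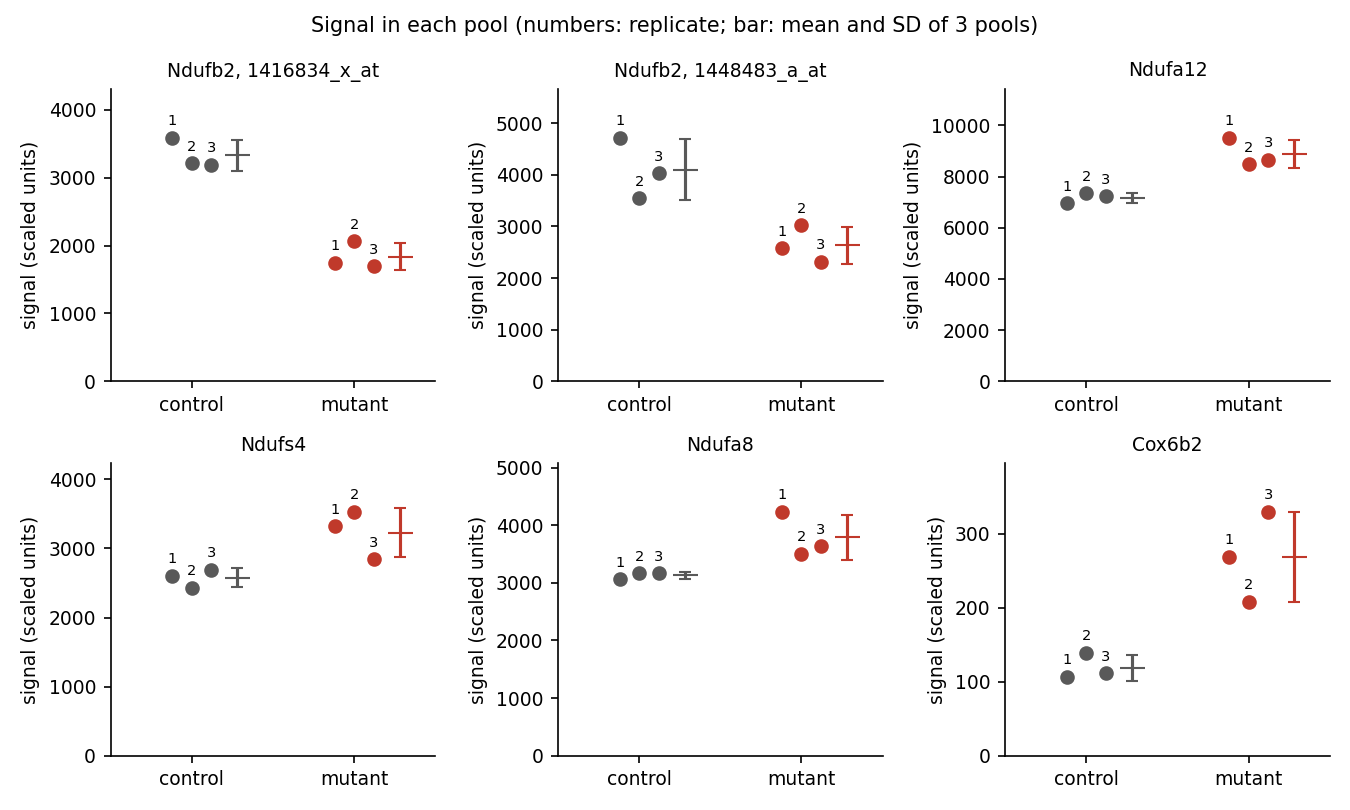
Signal of 6 probe sets in each of the 3 control (grey) and 3 mutant (red) pools, in scaled units from 0, with replicate numbers above the points and the mean and SD of 3 pools beside them. The 2 probe sets of Ndufb2 are lower in all mutant pools, while Ndufa12, Ndufs4, Ndufa8 and the low-signal isoform Cox6b2 are higher in all of them.

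Of the tested members with a positive difference, 3 had an unadjusted p under 0.05, all of complex I, and none was called. Ndufa12, an accessory subunit of the matrix arm, gave 6956, 7339 and 7234 in the control pools and 9516, 8484 and 8662 in the mutant pools. All mutant pools were above all control pools, by a log2 difference of 0.31 (SE 0.09, limma adjusted p = 0.134). Its other tested probe sets gave 0.22 and 0.22. Ndufs4, a matrix-arm subunit whose loss causes Leigh-like disease, gave 2607, 2431 and 2693 against 3321, 3529 and 2845, again without overlap (0.32, SE 0.11, limma adjusted p = 0.209). Ndufa8, an accessory subunit on the intermembrane-space side, gave 3063, 3171 and 3168 against 4231, 3503 and 3636 (0.27, SE 0.11, limma adjusted p = 0.260). Its control pools lay within a narrow band and mutant 1 stood above the other mutant pools.

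On the negative side, Ndufb6, a further accessory subunit of the membrane arm, gave 8718, 9081 and 8920 in the control pools and 8403, 7588 and 7235 in the mutant pools (−0.20, SE 0.09, limma adjusted p = 0.332). The groups did not overlap, but its other probe set gave −0.01 with overlapping groups. Ndufa3, a small membrane-anchored subunit, had a difference of −0.19 (limma adjusted p = 0.355) without overlap. None of the tested subunits that carry the redox centres was called. Ndufv1, which holds the flavin that accepts electrons from NADH, was at 0.16 (SE 0.15). Ndufs1, with iron-sulfur clusters, was at 0.01 (SE 0.15), and Ndufs8, also an iron-sulfur subunit, at 0.07 (SE 0.18). The iron-sulfur subunits Ndufs7 and Ndufv2 were at 0.16 (SE 0.12) and 0.16 (SE 0.14). Ndufs3, a core subunit, was at 0.04 (SE 0.09), although its groups did not overlap.

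Complex II, which is also the succinate dehydrogenase of the citrate cycle, had 4 tested members, none called, a median of −0.01 and no member without overlap. Sdhb, the iron-sulfur subunit, gave 6081, 5312 and 5526 in the control pools and 6138, 6505 and 5474 in the mutant pools (0.10, SE 0.10). Control 1 lay among the mutant pools, so the groups overlapped. Sdha, the flavoprotein, was at −0.01 (SE 0.10), and the membrane anchors Sdhc and Sdhd were at −0.09 (SE 0.13) and 0.00 (SE 0.13).

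Complex III had 8 tested members, none called, with a median of 0.00. Uqcrfs1, the Rieske iron-sulfur protein and a holder of a full CRE, gave 4928, 5584 and 5415 in the control pools and 4504, 4658 and 4913 in the mutant pools. All mutant pools were below all control pools, though mutant 3 and control 1 nearly met (−0.18, SE 0.10, 95% interval −0.39 to 0.04, limma adjusted p = 0.430). The core proteins Uqcrc2 and Uqcrc1 were at 0.25 (SE 0.15) and 0.09 (SE 0.15) with overlapping groups. The small subunits Uqcr11, Uqcrh, Uqcr10, Uqcrb and Uqcrq lay between −0.05 and 0.02.

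Complex IV had 10 tested members, none called, with a median of 0.04 and a range from −0.23 to 0.12. Cox7c, a small nuclear-encoded subunit, gave 456, 467 and 455 in the control pools and 323, 424 and 438 in the mutant pools. The groups did not overlap, and mutant 1 lay well below the other mutant pools (−0.23, SE 0.16, limma adjusted p = 0.545). Cox5a, which sits on the matrix side, was at 0.05 (SE 0.08), and Cox6b1, which faces the intermembrane space, was at 0.08 (SE 0.09). Cox4i1, the largest nuclear-encoded subunit, was at −0.01 (SE 0.11).

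The 3 tissue-restricted isoforms of complex IV lay below the filter. Cox6b2, the testis-type partner of Cox6b1, had signals of 107, 139 and 111 in the control pools and 269, 208 and 330 in the mutant pools, all mutant pools above all control pools. In a fit with no filter, where 1.60% of 10290 genes were called and 0.700% were called higher, its log2 difference was 1.15 (SE 0.21, 95% interval 0.68 to 1.62, limma adjusted p = 0.0251), a 2.23-fold higher level. It was the only member called higher in that fit. The call was lost without control 3 (adjusted p = 0.0968), mutant 1 (0.124) or mutant 3 (0.0575), and detection calls, which would say whether such a low signal is above background, were not used here. Cox8c, also testis-type, gave 148, 151 and 187 against 191, 210 and 230 (0.38, no-filter limma adjusted p = 0.354). Cox7a1, the heart and muscle isoform, gave 66, 73 and 66 against 97, 92 and 50 with overlapping groups (0.17). Their common partners Cox8a and Cox7a2 were at −0.05 and −0.03.

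Complex V had 17 tested members, none called, with a median of 0.07, 14 above 0 and 3 below. Atp5md, a small membrane subunit also known as DAPIT, gave 9982, 9400 and 9074 in the control pools and 9179, 13908 and 11952 in the mutant pools (0.28, SE 0.14, limma adjusted p = 0.375). Mutant 1 lay among the control pools. Atp5h and Atp5j, both of the peripheral stalk, were without overlap at 0.13 (SE 0.08) and 0.11 (SE 0.08), and neither was called. The rotor's c subunit is made from 3 genes with the same mature protein, and these gave 0.18 (Atp5g1), 0.08 (Atp5g2) and 0.09 (Atp5g3). The alpha and beta subunits of the F1 head, Atp5a1 and Atp5b, of which beta carries the catalytic sites, were at −0.10 (SE 0.09) and −0.03 (SE 0.09), and Atp5mpl, another small membrane subunit, was at −0.13 (SE 0.10).

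Averaged over the 72 tested members, the log2 level was 12.77, 12.67 and 12.68 in the control pools and 12.73, 12.79 and 12.73 in the mutant pools. Control 1 lay between the mutant pools, so the genotypes overlapped. The mean difference of 0.05 was about the size of the SD among pools of a genotype (0.05). By complex the mean differences were 0.06 for I, 0.00 for II, 0.02 for III, 0.00 for IV and 0.06 for V, and the groups overlapped in each. These averages depend on the authors' scaling of each array to a common level.

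**Figure D3:**
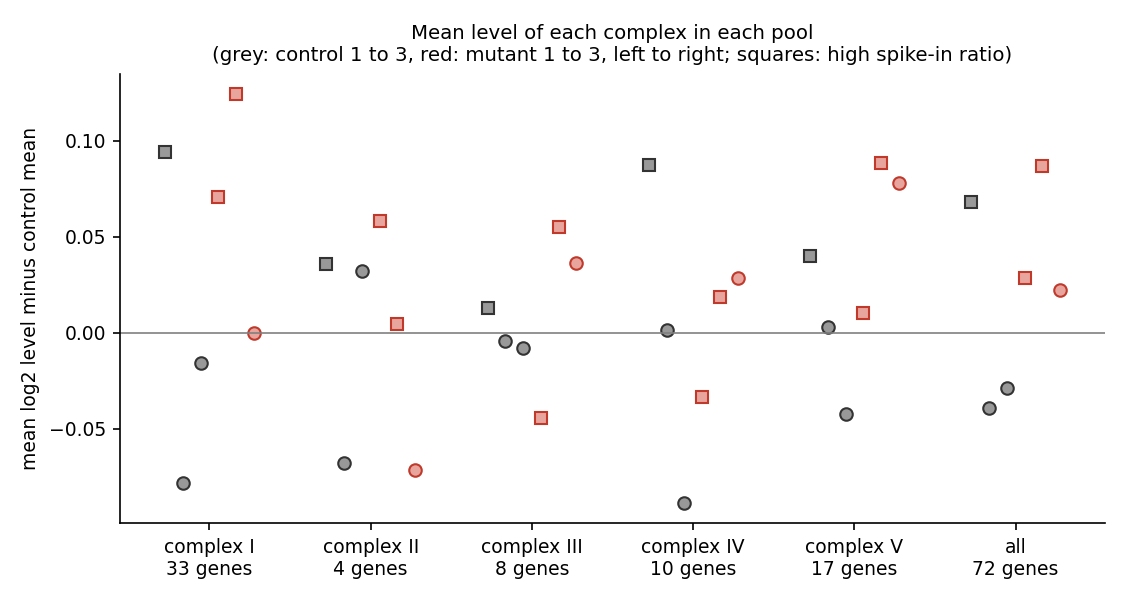
Mean log2 level of the tested members of each complex in each pool, as the difference from the mean of the 3 control pools (vertical axis, log2). Grey symbols are control pools 1 to 3 and red symbols mutant pools 1 to 3, with squares for the arrays with a high spike-in ratio. The genotypes overlap in every complex, and the whole set of 72 genes spans 0.13 log2 units over the 6 pools.

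The arrays also differed in a way that genotype does not explain. The ratio of 3′ to 5′ signal of dap, a bacterial control transcript spiked in before labelling, was 22.9, 23.8 and 19.6 on control 1, mutant 1 and mutant 2 and 12.2, 11.1 and 10.2 on control 2, control 3 and mutant 3. The ratios of the control transcripts thr, phe and lys were higher on the same arrays. Those of the mouse transcript Actb overlapped between these sets of arrays, at 2.05, 1.40 and 1.80 against 1.53, 1.72 and 1.80. The ratios of mouse Gapdh overlapped as well. Across all genes, 11.7% differed between these sets in a limma fit with both terms, and in the same fit 6.51% were called between genotypes. Of the 72 members, 8 (11.1%) were called between the sets, a share near that background. The 7 higher on the high-ratio arrays were Ndufs8 (0.54), Uqcrc2 (0.40), Ndufv1 (0.37), Cox7a2l (0.37), Ndufv2 (0.34), Ndufb7 (0.32) and Ndufb11 (0.31), and Uqcrc1 was lower (−0.41). For the members the median size of the difference was 0.088 between array sets and 0.054 between genotypes in this fit. Ndufs8 shows the pattern: 7520, 6634 and 6726 on the high-ratio arrays and 4782, 5117 and 4804 on the low-ratio arrays, with no overlap between the sets. Its other probe sets gave 0.43, 0.10, 0.07 and −0.12 for the same contrast. Likewise Ndufv1 gave 0.37 and 0.31 with 2 probe sets and −0.13 with the third, and the other probe set of Ndufb7 gave 0.00.

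Ndufb2 was lower in the mutants within each array set, by −0.76 on the high-ratio arrays and −0.71 on the low-ratio arrays, each from only 3 arrays, with 1 genotype held by a single pool. With the array set in the model its difference was −0.73 (limma adjusted p = 0.000363), and it was again the only member called among 72, where 3.73% of all genes were called lower. Cox6b2 was higher within each set, by 1.14 and 1.40, and with the set in the no-filter model by 1.27 (limma adjusted p = 0.00119). All its signals lay below the filter's cut, and this fit was added after seeing the data. The share of all genes called in this fit is not given here, so the p-value is not set against a background. The members' median was −0.02 within the high-ratio arrays, so the small positive median over all pools was not found in that set. Control 1 was the only control pool there. With the array set in the model, the members' median was 0.03.

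**Figure D4:**
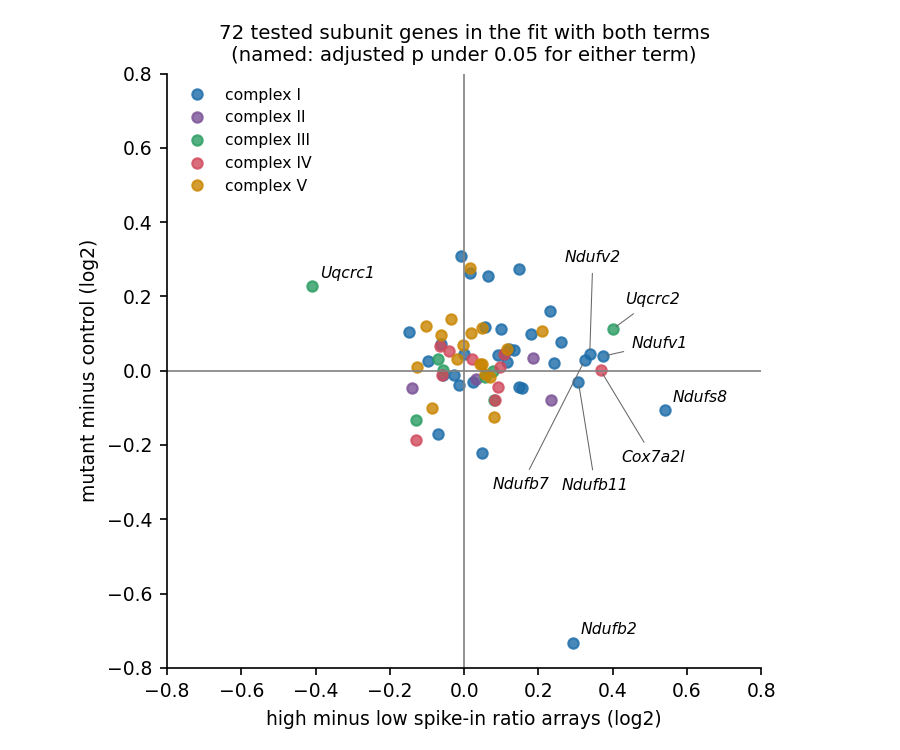
Difference between genotypes (vertical axis, log2) against the difference between arrays with a high and a low spike-in ratio (horizontal axis, log2) for the 72 tested members, from a fit with both terms, coloured by complex. Named genes have an adjusted p under 0.05 for either term. Ndufb2 at −0.73 stands apart vertically, and 8 genes stand apart horizontally.

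Where a gene had more than 1 tested probe set, their directions often differed: of 39 such members, 23 had all differences between genotypes of 1 sign and 16 had both signs. The widest disagreement was in Atp5a1, the alpha subunit of complex V. Its dim probe set gave 256, 369 and 372 in the control pools and 591, 492 and 418 in the mutant pools, a difference of 0.60 (SE 0.20, limma adjusted p = 0.227 over probe sets). Control 1 lay below the filter's cut, and so did the geometric mean of the control pools. This probe set thus passed the filter only through its mutant pools. Its bright probe sets gave −0.09 and −0.10 with overlapping groups. Sdhc gave −0.09 and 0.18, and Atp5h gave 0.13 and −0.01.

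Genes that serve the chain without being its subunits were taken as fixed lists. Electron carriers and subunits outside the naming pattern numbered 11 tested genes, none called, with a median of 0.14. Coq10b, a coenzyme Q-binding protein, gave 382, 468 and 474 in the control pools and 533, 746 and 680 in the mutant pools, without overlap (0.56, SE 0.17, limma adjusted p = 0.139). With the array set in the model it was at 0.62 and was called (limma adjusted p = 0.0204), the only gene of this list to be so. Etfa, which feeds electrons from fatty acid oxidation into the ubiquinone pool, was at 0.35 (limma adjusted p = 0.207). Atp5md is in this list as well as among the members.

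The assembly factors numbered 41 tested genes, with 1 lower, 0 higher and a median of 0.08. Nubpl gave 1399, 1081 and 1079 in the control pools and 445, 595 and 516 in the mutant pools. Every mutant pool was far below every control pool, and the mean level was 2.28-fold lower (log2 difference −1.19, SE 0.16, 95% interval −1.54 to −0.84, limma adjusted p = 0.00613). The call was lost without mutant 1 (−1.08, adjusted p = 0.0531) and kept in the other 5 fits that leave out 1 array. Ndufaf2, a further complex I assembly factor, was at 0.28 (SE 0.11, limma adjusted p = 0.247), Sdhaf4, of complex II, at 0.45 (SE 0.15, limma adjusted p = 0.178), and Cox17, a copper chaperone for complex IV, at 0.24 (SE 0.11, limma adjusted p = 0.354).

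The nuclear regulators and factors for mitochondrial DNA expression numbered 17 tested genes, none called, with 12 below 0 and 5 above. Gabpa, the DNA-binding subunit of GABP, gave 3089, 2805 and 2644 against 2178, 2113 and 2561, without overlap (−0.32, SE 0.12, limma adjusted p = 0.229), and its partner Gabpb2 was at −0.28 (SE 0.12, limma adjusted p = 0.302). Polg, the polymerase of mitochondrial DNA, gave 964, 1206 and 1208 against 856, 838 and 866 (−0.39, SE 0.13, limma adjusted p = 0.178). Its mutant pools lay close together and below all control pools. Mterf4, which acts on the mitochondrial ribosome, was at 0.44 (SE 0.20).

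Upstream of the chain, the pyruvate dehydrogenase and citrate cycle list had 16 tested genes, 1 lower and 0 higher. Pdha1, the catalytic alpha subunit of pyruvate dehydrogenase, gave 6093, 4307 and 4453 in the control pools and 2693, 3321 and 3129 in the mutant pools (−0.69, SE 0.15, limma adjusted p = 0.0454). The groups did not overlap. With the mean of the gene's probe sets the difference was −0.32 (limma adjusted p = 0.428), and the call was lost without control 2 (0.0506), control 3 (0.106), mutant 1 (0.223), mutant 2 (0.132) or mutant 3 (0.0616). Suclg1, of succinyl-CoA ligase, was at 0.25 and Ogdh, of the oxoglutarate dehydrogenase, at −0.39, and neither was called. The carriers and porins (10 tested) and glycolysis (12 tested) had no called gene and medians of −0.02 and −0.01, with Slc25a3, the phosphate carrier, at −0.22 and Hk1, a hexokinase, at 0.26.

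The 2 ribosomes were set beside the chain as other large assemblies of nuclear-encoded proteins. The cytosolic ribosomal proteins had 41 tested genes with a median of 0.05, beside 0.05 for the chain, and 1 lower, Rps27. It gave 435, 769 and 563 in the control pools and 201, 248 and 230 in the mutant pools. All its mutant pools lay below the filter's cut of 349, so it passed the filter only through its control pools. Its difference was −1.34 (SE 0.21, limma adjusted p = 0.0123, lost without mutant 1 at 0.0833 and without mutant 2 at 0.0639). The mitochondrial ribosomal proteins, which translate the subunits encoded in mitochondrial DNA, had 76 tested genes with a median of 0.13, 1 lower and 0 higher. Mrpl55 gave 1444, 1362 and 1439 in the control pools and 871, 1025 and 820 in the mutant pools (−0.65, SE 0.13, limma adjusted p = 0.0327), lost in 5 of 6 fits without 1 array (adjusted p 0.0823 without control 2, 0.125 without control 3, 0.153 without mutant 1, 0.0639 without mutant 2 and 0.0616 without mutant 3). Mrpl1, at 0.45, and Mrpl2, at −0.49, lay in opposite directions at limma adjusted p values of 0.0842 and 0.0836. With the array set in the model, 7 of the 76 were called, against 6.51% of all genes. Of these, 3 were higher in the mutants (Mrpl1 at 0.42, Mrpl10 at 0.46 and Mrpl27 at 0.45) and 4 lower (Mrpl55 at −0.69, Mrpl2 at −0.57, Mrpl4 at −0.53 and Mrps17 at −0.40), at limma adjusted p from 0.00204 to 0.0428. In this list 19 of 76 genes had an unadjusted p under 0.05, beside 15% of all genes and 5 of the 72 members, and whether the lists differ was not tested.

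**Figure D5:**
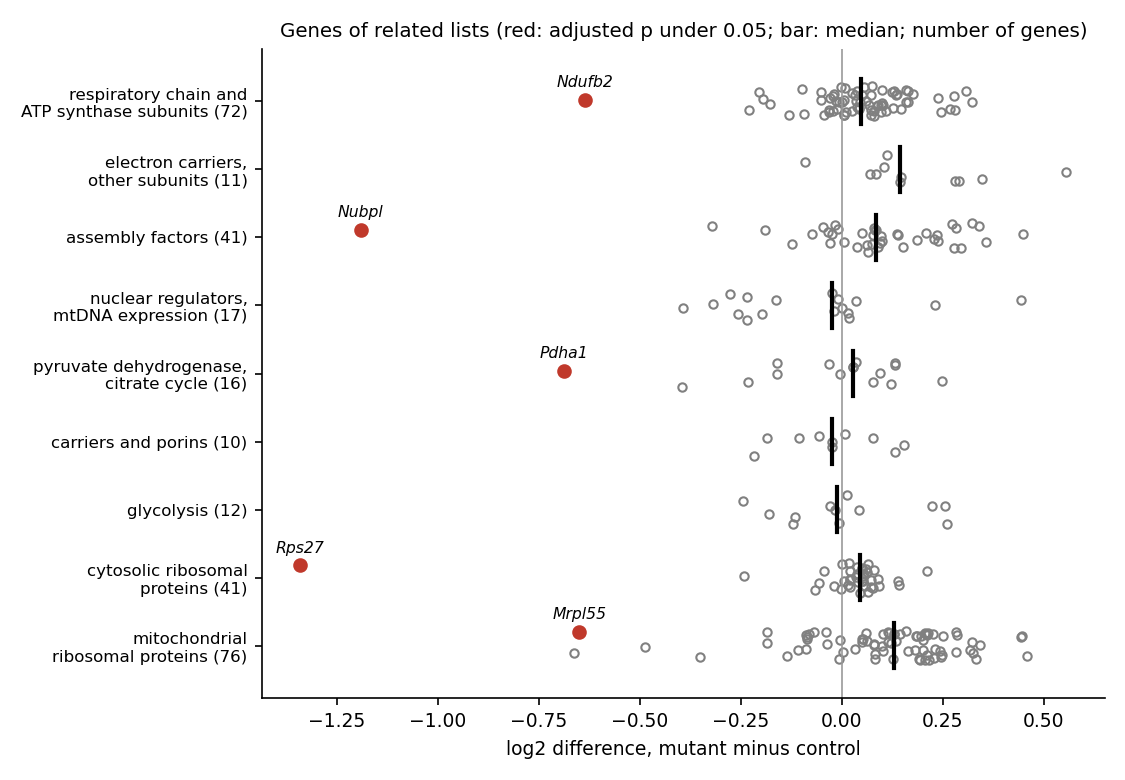
Difference between genotypes (log2, horizontal axis) of every tested gene in each list, with the number of genes in brackets and a bar at the median. Red symbols mark an adjusted p under 0.05. Each of Ndufb2, Nubpl, Pdha1, Rps27 and Mrpl55 is the single red symbol of its list, and all 5 lie to the left of 0. Rps27 is dim, with all mutant pools below the filter's cut.

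The other promoter motifs were searched on both strands in the same windows. NRF1 sites were in 14 of the 63 members (22.2%), against 13.9% of tested genes and 5.19% of all genes with a window. GABP sites (CCGGAAG) were in 17 (27.0%, against 24.4% and 9.93%), and YY1 sites (AANATGGCG) in 9 (14.3%, against 7.88% and 2.76%). Sp1 sites (GGGCGG) were in 26 (41.3%), against 73.4% of tested genes and 38.2% of all. The CRE core TGACG, which lies within the full CRE, was in 24 (38.1%), against 38.7% and 23.0%. The tested members with the core had a median difference of 0.05 and those without it 0.07, and holders of NRF1 and GABP sites had medians of 0.09 and 0.04. Of the 3 members with the full CRE, Ndufb2 fell, Uqcrfs1 was at −0.18 and Ndufa10, an accessory subunit of complex I, was at −0.04 (SE 0.09) with 4404, 4451 and 4466 in the control pools and 4458, 4135 and 4327 in the mutant pools.

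The dissected tissue was checked against markers. Of 13 PSM markers, 11 were in the table, with Tbx6 at a control mean of 550 and Dll1 at 3284, while Msgn1 and T were not in it. Mesp2 and Lfng lay below the filter, and of the 9 tested markers 1 was called lower. All 11 had a lower mean signal in the mutants. Means fell from 550 to 328 for Tbx6, from 3284 to 2059 for Dll1, from 2115 to 1323 for Dll3 and from 1070 to 363 for Ripply2. The change was small for Meox1 (863 to 832) and Tcf15 (649 to 616). The summed signal of the 11 markers was 10323 to 12586 in the control pools and 6711 to 9684 in the mutant pools. Summed markers of some other cell types also did not overlap between genotypes, though such sums follow the brightest probe sets. Blood ran from 32059 to 44561 in controls and 44586 to 62561 in mutants (7 of 7 genes in the table), so its ranges nearly met. Epithelia ran from 15205 to 17149 and 22929 to 24626 (9 of 9). Endothelium ran from 9272 to 10103 and 4974 to 7578 (5 of 7), and lateral mesoderm from 5257 to 5526 and 2606 to 3296 (4 of 6). Of tested markers, 1 of 5 for blood and 3 of 7 for epithelia were called higher. For endothelium 1 of 5 and for lateral mesoderm 3 of 4 were called lower. Neural tube markers overlapped (3 of 5), and of 7 heart muscle markers only Actc1 was in the table, at 87.6 to 201 and 318 to 561. The part of these shifts in the differences of the subunit genes was not tested.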

How the data were processed

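RNA from 6 pools of anterior PSM, 3 per genotype, was hybridized to Affymetrix mouse expression arrays. The authors deposited 1 scaled linear intensity per probe set and array, made with Affymetrix Expression Console and MAS5, per the submitters' processing notes. Versions and scaling target are not given in the sources used here. The number of arrays limits the precision.

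Probe sets were named through the platform annotation (17348 with 1 symbol, 494 with several, 1709 with none, 55 controls). Signals were analysed as log2(signal + 1), and probe sets below the 40th percentile of mean log2 signal were left out. Genotypes were compared by limma 3.58.1 in R 4.3.3, with an intensity trend and Benjamini-Hochberg adjustment over 7245 genes; scripts were tested on simulated data. Arrays were not treated as paired by replicate number. Same-numbered arrays had a residual r of 0.12, −0.45 and 0.35, which is too little to settle whether they were paired. Those of replicates 1 and 3 shared a spike-in ratio set, and those of replicate 2 did not.

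Members and gene lists were chosen with earlier results of these data known. Named were called genes, up to 4 members per complex and 3 genes per list with the smallest p, restricted isoforms, and members with disagreeing probe sets. Promoters and their sequences are from RefSeq (GRCm38.p6). Protein sequences were not used here.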

Additional observations from a re-analysis of the deposited data

How the results depend on the processing

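Alternatives were offsets of 16 and 64, quantile normalization, median centring, no filter, a 60th percentile filter, no intensity trend, averaged probe sets of a gene, no _x_at, _s_at or _a_at probe sets, array quality weights, a replicate block, a spike-in ratio block and leaving out each array. The spike-in ratio split was found in these data, and the Cox6b2 fits were added after seeing them. The number of members called lower was 0 with quantile normalization, with no intensity trend and with no _x_at, _s_at or _a_at probe sets, which removes Ndufb2, and ran from 0 to 1 when leaving out 1 array. The number called higher was 1 with no filter, where 0.700% of all genes were called higher, and 5 with array quality weights. The weighted fit called 943 genes in either direction, against 123 in the main fit. Its share of all genes called higher is not given here, so the 5 are not set against a background. Over all genes, 74 were called with the 60th percentile filter, 943 with array quality weights, 472 with the spike-in ratio block, and from 19 to 230 when leaving out 1 array. With a replicate block, 176 were called, Ndufb2 among them (adjusted p = 0.0358). No other call of a member changed with it. With no _x_at, _s_at or _a_at probe sets, the median of complex III was −0.073 and that of complex V 0.014. Within the high-ratio arrays, medians were −0.020 for all members, −0.038 for complex III, −0.084 for complex IV and −0.0091 for complex V, and within the low-ratio arrays 0.11 for complex IV. Leaving out 1 array, the median of complex I ran from 0.041 to 0.15 and that of complex III from −0.031 to 0.047. Reversed signs were seen for Sdha (0.020 with quantile normalization, 0.040 with weights), Sdhd (0.034 with quantile normalization, 0.032 with averaged probe sets), Sdhc (0.045 with averaged probe sets), Atp5h (−0.0095 with no _x_at, _s_at or _a_at probe sets) and Uqcrc1 (−0.039 with weights). Leaving out 1 array, Sdha ran from −0.049 to 0.022, Sdhd from −0.096 to 0.0995, Uqcrc1 from −0.072 to 0.20 and Uqcr11 from −0.090 to 0.0074. The cause was not tested.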

Other observations

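The full CRE was read over the whole table of tested genes as a description, with no test. Of 238 tested genes whose promoter window held TGACGTCA, 11 were called lower in the mutants (4.62%) and 1 higher, Plk2, a kinase. Of 5728 tested genes with a window and no full CRE, 61 were called lower (1.06%) and 30 higher. The 11 were Brca2, Clcn4, Ice2, Klhl12, Ndufb2, Nubpl, Pop4, Ranbp6, Rce1, Tspyl4 and Zfp266. Brca2 is known for DNA repair by recombination, Pop4 for RNase P, Rce1 for processing of prenylated proteins and Clcn4 for chloride-proton exchange.

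The CRE core, TGACG, was read in the same way. Of 2307 tested genes that held TGACG, 57 were called lower (2.47%) and 4 higher, against 15 lower (0.410%) and 27 higher of 3659 without it. The core lies within the full CRE, so the holders of the full CRE and their calls are among these 2307, and the 2 counts are not separate. Of the 4 other related genes called lower, Nubpl held the full CRE, and Pdha1, Mrpl55 and Rps27 each held the core without it. Of these, Rps27 passed the filter only through its control pools. For NRF1 sites, 0.482% of 830 tested holders were called lower, against 1.32% of 5136 genes without one. The shares were 0.619% of 1455 and 1.40% of 4511 for GABP, 0.851% of 470 and 1.24% of 5496 for YY1, and 1.05% of 4377 and 1.64% of 1589 for Sp1. Among the subunit genes themselves, 24 of 63 held the core and 1 of these 24, Ndufb2, was called. Any part of these motifs in the calls was not tested.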
